A study of Mus musculus with 4 samples.

Results

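The solute carrier genes of effector T cells from NOD mice were compared between cells with high and with low surface CD5. Members were chosen by name: every row of the authors' deposited table that had been tested, named a single gene and carried a symbol starting with Slc or Slco and a number. There were 86 such genes among 7252 tested rows. Of these, 82 were counted as transporters by family name, in 34 families, and 4 carry an Slc symbol without being transporters. The 82 include Slc3a2, a heavy chain that partners amino acid carriers. The cells came from NOD.Foxp3-GFP mice aged 6 to 9 weeks. NOD is an inbred strain prone to autoimmune diabetes, and the GFP reporter marks cells expressing Foxp3, which defines regulatory T cells. Both groups, CD5 high and CD5 low, shared this strain and genotype, and neither received a treatment that the labels name. The labels call all 4 libraries effector T cells, 2 per group; the titles start with Isl and a number, 3 or 4, that recurs in both groups, while the tissue label gives both pancreatic islets and the spleen. Neither the number of animals behind a library nor the way the CD5 gates were drawn is stated in the labels.

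Solute carriers move small molecules across membranes without spending ATP directly, either down a gradient or by coupling to sodium, protons or another solute. T cells at rest keep few nutrient carriers at the surface and, on activation, bring up glucose and amino acid carriers to feed growth. Other families work inside the cell. Most Slc25 carriers sit in the inner mitochondrial membrane and exchange nucleotides, phosphate and metabolites. The Slc35 carriers load the Golgi and endoplasmic reticulum with nucleotide sugars. The Slc30 and Slc39 families move zinc out of and into the cytosol. CD5 is a surface receptor of T cells whose level tracks the strength of a cell's signals from self-peptides.

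The table gave 1 combined FPKM value per group (read fragments normalized for transcript length and library size) with the authors' test of the difference, so values carry no SD and the depth is unknown. T cell markers were high in both groups: all 9 listed genes were tested, from 121 FPKM for Cd28 to 991 FPKM for Lat, according to the authors' deposited table. Summed markers of other cells differed between groups. Those of macrophages and dendritic cells, 8 of 12 listed genes tested and 5 of them lower in CD5 high at q under 0.05, summed to 1234 FPKM in CD5 low against 634 FPKM in CD5 high. The 5 tested regulatory T cell genes of 6 summed to 337 and 703 FPKM, and 4 of them rose (0.538% of all tested genes did). The largest values were those of Ctla4 (132 and 272 FPKM), Tnfrsf18 (122 and 213 FPKM) and Tnfrsf4 (65.8 and 169 FPKM). Foxp3, the defining gene, was not among the 4: it had the smallest values of the 5, 1.10 and 12.3 FPKM (q = 0.298). The 5 tested islet endocrine genes of 11 summed to 321 and 2794 FPKM, but they differed in direction. Ins1 rose from 4.003 to 368 FPKM, and Ins2 had 26.7 and 2395 FPKM (q = 0.193), while Sst had 263 and 6.86 FPKM (q = 0.0714) and Ppy 19.4 and 5.63 FPKM (q = 0.616), according to the authors' deposited table. The 11 tested exocrine genes of 12 summed to 1403 and 1213 FPKM, of which Cel fell. All 4 genes of cycling cells rose, against the same 0.538%, with sums of 87.3 and 167 FPKM. No erythroid and no CD8 T cell marker of those listed was tested. The part of these cells in the transporter values below was not tested, and fewer cells of a type and less RNA per cell cannot be told apart.

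At the authors' q under 0.05, none of the 86 genes changed between CD5 high and CD5 low in their deposited table, where 0.758% of all tested genes did. The smallest q among them was 0.113, for the sodium bicarbonate cotransporter Slc4a7. Among all tested genes 0.538% were called higher and 0.221% lower in CD5 high. At q under 0.10 the count was also 0 (background 1.28%). At an unadjusted p under 0.05 there were 10 members, or 11.6%, against 10.3% of all tested genes. Of these 10, 5 had the higher value in CD5 high (background 5.58%) and 5 in CD5 low (background 4.7%). Over all members 43 values were higher in CD5 high and 43 lower. Their median on the log2 scale was -0.00, next to -0.01 over all tested genes. The quartiles, -0.29 and 0.21, lay close to those of all tested genes, -0.24 and 0.24. The fold was under 1.5 for 74 members (86.0%), and under 1.5 for 85.2% of all tested genes with a finite fold.

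A q-value over 0.05 does not show that the levels were equal. The smallest difference that passed in the whole table was 0.73 on the log2 scale, or 1.66-fold, and 78 of the 86 members differed by less than that. Among the 2121 tested genes with a mean of 10 to 20 FPKM, the range that holds 23 of the members, 8 passed and the smallest passing difference was 0.97. Every tested gene reached 6.82 FPKM in at least one group, so a gene below that level in one group was in the table through its other group alone. This was so for 16 members (18.6%), against 10.4% of all tested genes, and 6 of the 10 members with an unadjusted p under 0.05 were among them. A fold of at least 2 was seen for 3 members, Slc39a13, Slc25a24 and Slc14a1, and for 4.44% of all tested genes with a finite fold; all 3 were among the 16.

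**Figure D1:**
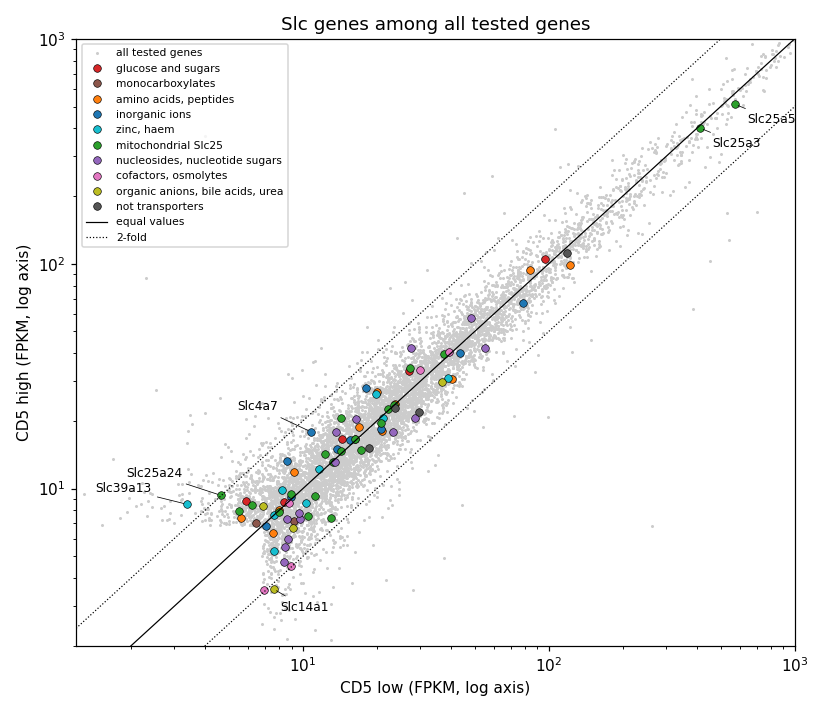
Deposited FPKM of each Slc gene (coloured by substrate class) in CD5 low (x axis) and CD5 high (y axis), both log axes, over all tested genes with a finite fold in grey (those outside the axes are not drawn). The solid line marks equal values and the dotted lines 2-fold; 3 of 86 Slc genes lie past 2-fold, all of them below 10 FPKM in both groups.

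Promoter sequences are shown for 4 genes that the values single out: the most abundant carrier, the member with the largest fold in favour of CD5 high, and the members of lowest unadjusted p in each direction among those with an entry. RefSeq (GRCm38.p6) had an entry within 500 bases of the deposited 5′ end for 58 of the 86 members, from 250 bases before the start to 50 after it. Each is written 5′ to 3′ on the gene's strand. Capitals mark matches on either strand: the GC box is GGGCGG. The metal response element core is TGCNCNC, and a run of capitals can hold overlapping matches.
Slc25a5, chrX:36795347-36795646, plus strand: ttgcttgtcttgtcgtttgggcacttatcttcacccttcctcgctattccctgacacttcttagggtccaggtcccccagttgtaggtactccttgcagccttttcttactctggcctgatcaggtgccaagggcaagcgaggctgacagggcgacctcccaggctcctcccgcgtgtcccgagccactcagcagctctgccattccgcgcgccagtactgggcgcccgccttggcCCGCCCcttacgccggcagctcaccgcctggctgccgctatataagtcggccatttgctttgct
Slc39a13, chr2:91070266-91070565, minus strand: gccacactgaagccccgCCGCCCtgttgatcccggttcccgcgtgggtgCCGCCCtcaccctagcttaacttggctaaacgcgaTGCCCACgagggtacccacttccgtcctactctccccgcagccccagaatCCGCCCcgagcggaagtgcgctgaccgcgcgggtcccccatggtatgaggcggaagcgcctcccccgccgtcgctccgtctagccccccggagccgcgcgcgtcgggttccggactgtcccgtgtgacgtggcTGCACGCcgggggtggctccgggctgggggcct
Slc25a24, chr3:109122899-109123198, plus strand: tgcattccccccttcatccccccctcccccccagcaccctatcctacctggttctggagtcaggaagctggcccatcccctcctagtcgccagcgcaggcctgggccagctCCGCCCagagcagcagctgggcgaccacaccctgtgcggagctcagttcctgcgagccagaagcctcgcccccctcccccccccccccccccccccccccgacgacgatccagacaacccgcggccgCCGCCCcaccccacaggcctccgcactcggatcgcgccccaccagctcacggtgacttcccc
Slc22a5, chr11:53891654-53891953, minus strand: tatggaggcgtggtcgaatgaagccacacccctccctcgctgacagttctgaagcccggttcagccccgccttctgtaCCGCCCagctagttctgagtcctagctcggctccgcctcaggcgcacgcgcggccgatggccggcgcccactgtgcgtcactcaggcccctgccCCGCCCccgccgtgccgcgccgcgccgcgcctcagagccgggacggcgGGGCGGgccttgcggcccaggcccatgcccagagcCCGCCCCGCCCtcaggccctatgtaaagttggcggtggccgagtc
Slc22a5 held 5 GC boxes, Slc39a13 3, Slc25a24 2 and Slc25a5 1. Of the 4, Slc39a13 alone held the metal response core, at 2 positions. None held an E-box, spelled CACGTG, or a CCAAT box. The cAMP response element, TGACGTCA, was not found in the 4 either. Nor was the ATF4 composite element, TGATGNAA. Over the 58 member promoters a GC box was found in 79.3%, against 68.9% of 4986 promoters of tested genes and 35.9% of 27025 promoters in all. The E-box was found in 13.8%, 11.1% and 7.24% of the same sets, and the metal response core in 60.3%, 59.7% and 50.4%. The other motifs were found in 32.8%, 39.3% and 37.9% (CCAAT box), 1.72%, 3.85% and 1.88% (cAMP response element) and 3.45%, 2.11% and 4.06% (ATF4 composite element). A match is only a match of letters in this window.

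The most abundant transporter messages in these libraries were those of a pair of mitochondrial carriers. The part of other cells in these levels was not tested. Slc25a5, the ADP/ATP carrier ANT2 that trades mitochondrial ATP for cytosolic ADP, ranked 202 by mean among all tested genes in the authors' deposited table, at 573 FPKM in CD5 low against 511 FPKM in CD5 high. Slc25a3, which imports the phosphate for ATP synthesis, stood at 414 and 400.5 FPKM. Together they made up 37.9% of the summed FPKM of the 82 transporters in CD5 low and 35.98% in CD5 high. The whole Slc25 family made up 48.9% and 47.9%, and amino acid carriers 13.7% and 13.6%. Carriers of nucleosides, nucleotides and nucleotide sugars made up 10.7% in both.

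Next by mean level in the authors' deposited table were the scaffold gene Slc9a3r1, the glutamine and alanine carrier Slc38a2, the Golgi sugar carrier Slc50a1, the CD98 heavy chain Slc3a2, the phosphate importer Slc20a1, the nucleoside carrier Slc29a1, Slc35b3, which carries the sulfate donor PAPS into the Golgi, and the endosomal sodium proton exchanger Slc9a9. These 8 lay between 40.2 and 122 FPKM. Most members were far lower: the median of the group means was 14.997 FPKM against 20.5 FPKM over all tested genes, 32 members had a mean under 10 FPKM, and 4 (4.65%) were in the top 10% of tested genes.

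**Figure D2:**
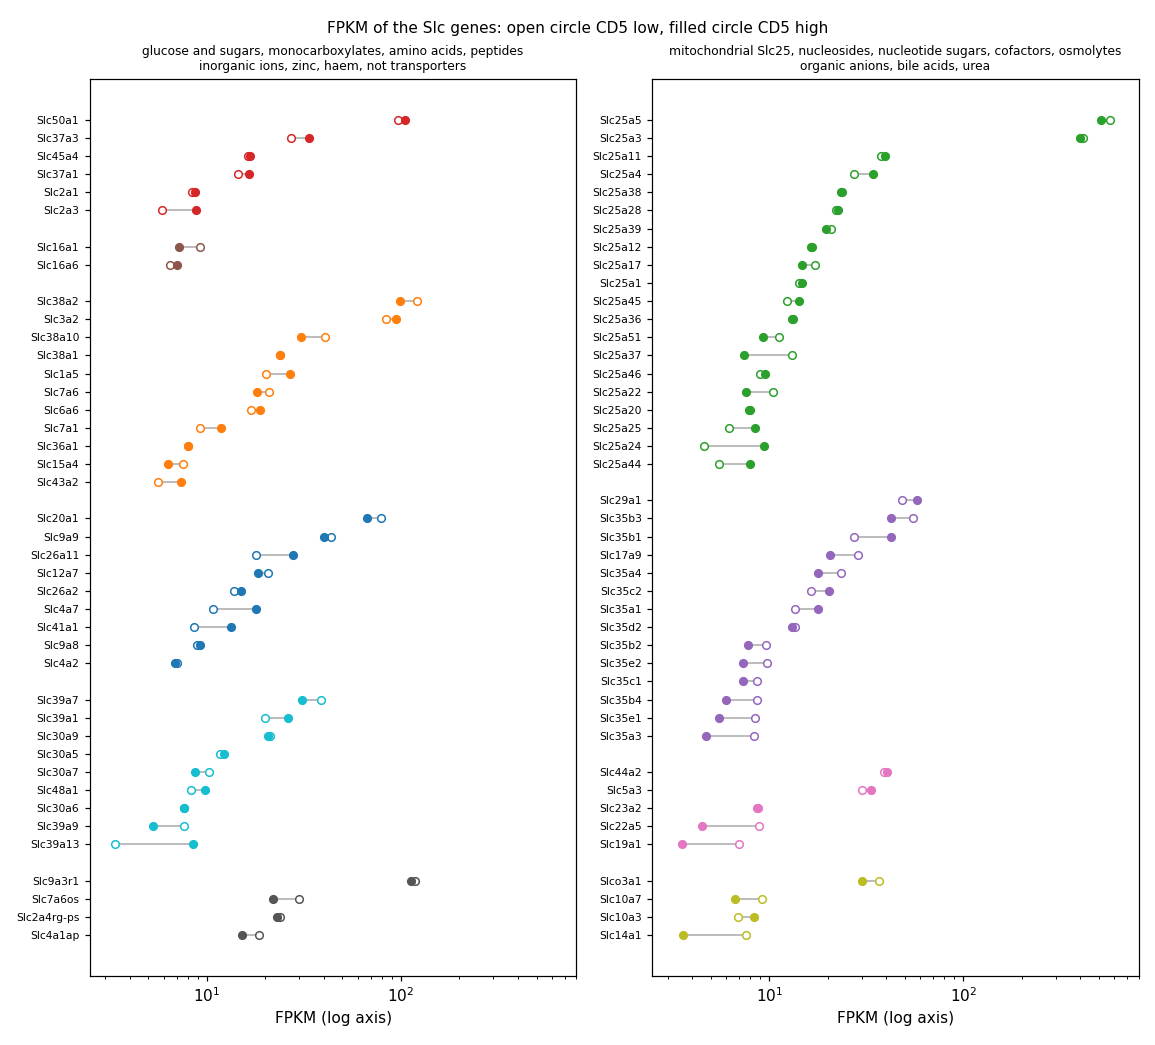
Deposited FPKM (log axis) of 84 of the 86 Slc genes, ordered within each substrate class by the mean of both groups, with CD5 low as an open and CD5 high as a filled circle joined by a line; each circle is 1 combined value per group with no error. Slc25a5 and Slc25a3 stand above 400 FPKM in both groups, and the longest lines belong to Slc39a13, Slc14a1 and Slc25a24 at the low end.

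Among carriers of glucose and other sugars none of 6 genes passed the test, and all 6 had a higher value in CD5 high, by 0.03 to 0.58 on the log2 scale (49.1% of all tested genes had a higher value). The 6 were also higher after quantile normalization, which uses the same combined values and shifted no member by more than 0.063 on that scale. In the authors' deposited table Slc2a3, the high-affinity glucose carrier of lymphocytes and neurons, went from 5.87 FPKM in CD5 low to 8.79 FPKM in CD5 high (1.496-fold, the authors' p = 0.10025, q = 0.593), and its CD5 low value lay under the lowest tested level of 6.82 FPKM. Slc2a1, the main glucose carrier of activated T cells, stood at 8.36 and 8.73 FPKM (q = 0.977), by the authors' deposited table. By mean level Slc2a3 was rank 73 and Slc2a1 rank 62 of the 86 members. Slc50a1 had 97.0 and 105 FPKM (q = 0.905), and Slc37a3, a relative of the glucose 6-phosphate carriers, 27.0 and 33.5 FPKM (q = 0.672), according to the authors' deposited table. Slc45a4 and Slc37a1 lay between 14.5 and 16.6 FPKM in both groups.

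Both tested monocarboxylate carriers had a mean under 10 FPKM. Slc16a1, the lactate and pyruvate carrier MCT1, had 9.19 FPKM in CD5 low against 7.21 FPKM in CD5 high (q = 0.753), and Slc16a6 had 6.46 and 7.06 FPKM (q = 0.949), by the authors' deposited table. The values of the pair differed in opposite directions.

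None of 11 amino acid and peptide carriers passed the test, and none had an unadjusted p under 0.05. Their log2 fold changes ran from -0.40 to 0.41 with a median of 0.00. As deposited 7 were higher in CD5 high (49.1% of all tested genes were), and 5 after quantile normalization. Slc38a2 had 122 FPKM in CD5 low against 98.9 FPKM in CD5 high (q = 0.604), according to the authors' deposited table. Its neighbour Slc38a1, a glutamine carrier of the same family 44478 bases away on chromosome 15, had 23.8 FPKM in both (q = 0.997). The lowest fold of the class belonged to another family member, Slc38a10, with 40.4 and 30.7 FPKM (q = 0.663). The sign of Slc38a1 turned under quantile normalization.

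Of the other 8 amino acid and peptide carriers, 6 had the higher value in CD5 high (49.1% of all tested genes had). These 8 leave out the Slc38 genes, and over all 11 the count after quantile normalization was 5. Among the 6, Slc36a1 turned sign under quantile normalization. Slc3a2, the heavy chain that brings several light chains to the membrane, had 83.8 FPKM in CD5 low against 94.2 FPKM in CD5 high (q = 0.821), by the authors' deposited table. Slc1a5, the glutamine carrier ASCT2, had the highest fold of the class with 20.1 and 26.8 FPKM (1.33-fold, q = 0.621). The arginine and lysine carrier Slc7a1 had 9.25 and 11.8 FPKM (q = 0.649), and Slc43a2, a carrier of large neutral amino acids, 5.62 and 7.39 FPKM (q = 0.677). Against these, Slc7a6, a light chain that pairs with Slc3a2, had 20.9 and 18.1 FPKM (q = 0.822), according to the authors' deposited table. The taurine carrier Slc6a6 had 16.8 and 18.7 FPKM (q = 0.873). The lysosomal carriers Slc36a1 and Slc15a4, the second of which is needed for endosomal Toll-like receptor signalling, lay between 6.34 and 8.01 FPKM.

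Of the 10 inorganic ion carriers none passed, and 3 had an unadjusted p under 0.05, each with the higher value in CD5 high (background 5.58%). Slc4a7, which imports sodium and bicarbonate and so raises cell pH, had 10.8 FPKM in CD5 low against 17.9 FPKM in CD5 high (1.66-fold, the authors' p = 0.0016, q = 0.113), by the authors' deposited table. Slc26a11, a chloride and sulfate carrier, had 18.01 and 27.9 FPKM (1.55-fold, the authors' p = 0.02005, q = 0.364). Slc41a1, which extrudes magnesium, had 8.63 and 13.3 FPKM (1.54-fold, the authors' p = 0.02915, q = 0.411). All 3 stood above the table's lowest tested level in both groups. They lie apart, Slc4a7 at chromosome 14, 14703025 to 14799943, Slc26a11 at chromosome 11, 119355557 to 119381076, and Slc41a1 at chromosome 1, 131828012 to 131848864 (mm10).

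The other 7 ion carriers differed by less, from -0.23 to 0.12 on the log2 scale. Slc20a1 had 78.8 FPKM in CD5 low against 67.1 FPKM in CD5 high (q = 0.740), according to the authors' deposited table. Slc9a9 had 43.6 and 40.2 FPKM (q = 0.899). The potassium chloride cotransporter Slc12a7, which lets swollen cells lose salt, had 20.8 and 18.4 FPKM (q = 0.844). The anion exchanger Slc4a2, of the same family as Slc4a7, had 7.06 and 6.83 FPKM (q = 0.979). Its log2 fold change was -0.05, and its CD5 high value lay just above the lowest tested level. The difference between the folds of Slc4a2 and Slc4a7 was not tested. Without members under a mean of 20 FPKM the class was left with 3 genes, and its median log2 fold change went from 0.06 to -0.12.

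The zinc and haem carriers held the largest fold of all members. Slc39a13, a zinc carrier of the Golgi and endoplasmic reticulum, had 3.37 FPKM in CD5 low against 8.52 FPKM in CD5 high (2.53-fold, the authors' p = 0.02155, q = 0.372), by the authors' deposited table. Its CD5 low value was the lowest of any member in either group, and the gene was tested through its CD5 high value alone. The other 8 genes, among them the haem carrier Slc48a1, ran from -0.53 to 0.40. The most abundant of the 9 were Slc39a7, a zinc carrier of the endoplasmic reticulum, with 38.8 and 30.9 FPKM (q = 0.694), and the surface zinc importer Slc39a1, with 19.9 and 26.3 FPKM (q = 0.662). Slc39a9 had the lowest fold of the class, from 7.61 to 5.28 FPKM (q = 0.615), according to the authors' deposited table. The 4 genes of the Slc30 family differed by at most 0.25 on that scale, and 2 of them, Slc30a5 and Slc30a6, had the higher value in CD5 high; the sign of Slc30a6 turned under quantile normalization.

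**Figure D3:**
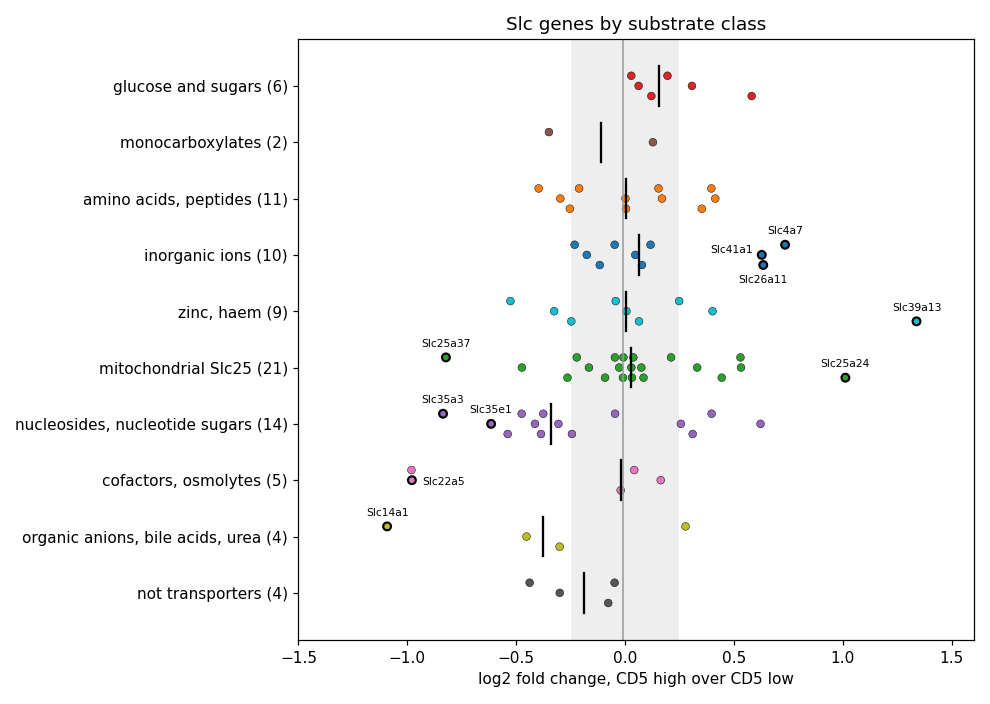
Log2 fold change (CD5 high over CD5 low) of each Slc gene by substrate class, with the number of genes in brackets; black bars are class medians, thick outlines and names mark an unadjusted p under 0.05, and the grey band and line are the quartiles and median of all tested genes. All 6 sugar carriers lie right of 0 (49.1% of all tested genes had a higher value). Of 14 carriers of nucleosides, nucleotides and nucleotide sugars, 10 lie left of it (3691 of 7252 tested genes had a lower value). No point passed q under 0.05.

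The 21 genes of the Slc25 family were taken by name as the mitochondrial class, without a check of where each protein lies. They held the most abundant members, and none passed the test. Their log2 quartiles were -0.09 and 0.21, against -0.24 and 0.24 over all tested genes. An unadjusted p under 0.05 was seen for 2 of the 21 (9.52%), against 10.3% of all tested genes. Slc25a5 and Slc25a3 had q-values of 0.802 and 0.963, by the authors' deposited table. Slc25a4, the ADP/ATP carrier ANT1 of heart and muscle, had 27.4 FPKM in CD5 low against 34.4 FPKM in CD5 high (q = 0.793), so of the ADP/ATP carriers Slc25a5 had the higher FPKM in both groups. The citrate carrier Slc25a1, which feeds cytosolic acetyl-CoA, had 14.3 and 14.7 FPKM (q = 0.985). Carriers of oxoglutarate (Slc25a11), aspartate and glutamate (Slc25a12), acylcarnitine (Slc25a20), glycine (Slc25a38) and pyrimidine nucleotides (Slc25a36) each differed by at most 0.07 in log2 fold change.

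The extremes of the Slc25 family by fold were Slc25a37 and Slc25a24, both with a mean near 10 FPKM or lower. Slc25a37, mitoferrin 1, which imports iron for haem and iron-sulfur clusters, had 13.1 FPKM in CD5 low against 7.39 FPKM in CD5 high (1.77-fold lower in CD5 high, the authors' p = 0.00825, q = 0.257), according to the authors' deposited table. Its paralog mitoferrin 2, Slc25a28, which serves tissues in general, had 22.2 and 22.7 FPKM (q = 0.985). The difference between the folds of this pair was not tested. Slc25a24, a calcium-regulated carrier of ATP-magnesium and phosphate, had 4.63 and 9.34 FPKM (2.02-fold, the authors' p = 0.0158, q = 0.350), and its relative Slc25a25 6.23 and 8.47 FPKM (q = 0.819), by the authors' deposited table. Both were under the lowest tested level in CD5 low. Slc25a37 lies at chromosome 14, 69241851 to 69285103, and Slc25a24 at chromosome 3, 109123149 to 109168409 (mm10).

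Of 14 carriers of nucleosides, nucleotides and nucleotide sugars, 10 had the lower value in CD5 high, with a median log2 fold change of -0.34. None passed the test, and 3691 of all 7252 tested genes had a lower value. The class held the PAPS carriers Slc35b2 and Slc35b3 and the ATP carriers Slc17a9 and Slc35b1. Quantile normalization left the count of lower values at 10. It uses the same combined values and shifted no member by more than 0.063 on the log2 scale. Of the 12 genes of the Slc35 family, 9 had the lower value in CD5 high. Without Slc35e1 and Slc35e2, 7 of 10 did, with a median log2 fold change of -0.28. Slc35a3, which brings UDP-N-acetylglucosamine into the Golgi for branching of N-glycans, had 8.39 FPKM in CD5 low against 4.70 FPKM in CD5 high (1.79-fold lower in CD5 high, the authors' p = 0.0301, q = 0.419), according to the authors' deposited table. Slc35e1 had 8.47 and 5.53 FPKM (the authors' p = 0.0331, q = 0.430). Both were under the lowest tested level in CD5 high, as was the nucleotide sugar carrier Slc35b4 with 8.69 and 5.98 FPKM (q = 0.638).

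At higher levels the class was mixed. Slc35b3 had 54.8 FPKM in CD5 low against 42.2 FPKM in CD5 high (q = 0.620), and the second PAPS carrier Slc35b2 9.63 and 7.79 FPKM (q = 0.863), by the authors' deposited table. Slc17a9, which fills vesicles with ATP for release, had 28.7 and 20.6 FPKM (the authors' p = 0.0961, q = 0.585). In the other direction Slc35b1, which exchanges ATP and ADP across the endoplasmic reticulum membrane, had 27.4 and 42.2 FPKM (1.54-fold, the authors' p = 0.0575, q = 0.506). The CMP-sialic acid carrier Slc35a1 had 13.6 and 17.9 FPKM (q = 0.740), and the nucleoside carrier Slc29a1, a route for adenosine, 48.2 and 57.6 FPKM (q = 0.760), according to the authors' deposited table. Slc29a1 lies 17530 bases from Slc35b2 on chromosome 17, and the 2 had their higher value in different groups.

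None of 5 carriers of cofactors and osmolytes passed the test. Slc44a2, a choline transporter-like protein, had 39.2 FPKM in CD5 low against 40.4 FPKM in CD5 high (q = 0.973), and the myo-inositol carrier Slc5a3 29.9 and 33.5 FPKM (q = 0.864), by the authors' deposited table. Slc22a5, the carnitine importer OCTN2, had 8.91 and 4.52 FPKM (1.97-fold lower in CD5 high, the authors' p = 0.0276, q = 0.407), and the reduced folate carrier Slc19a1 6.98 and 3.54 FPKM (1.97-fold lower, the authors' p = 0.225, q = 0.717). Both were under the lowest tested level in CD5 high. The ascorbate carrier Slc23a2 had 8.78 and 8.66 FPKM.

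Among the remaining 4 transporters, Slc14a1, a urea carrier known from red cells and kidney, had the lowest fold of all members, from 7.62 FPKM in CD5 low to 3.57 FPKM in CD5 high (2.13-fold lower in CD5 high, the authors' p = 0.0149, q = 0.344), according to the authors' deposited table. It too was under the lowest tested level in CD5 high. Slco3a1, an organic anion carrier, had 36.8 and 29.9 FPKM (q = 0.683). Slc10a7 and Slc10a3, of the bile acid carrier family, had 9.14 and 6.68 FPKM (q = 0.702) and 6.91 and 8.38 FPKM (q = 0.888).

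The 4 genes with Slc symbols that are not transporters all had lower values in CD5 high, by 0.05 to 0.44 on the log2 scale. None passed, and 3691 of all 7252 tested genes had a lower value. Slc9a3r1, a scaffold that links membrane proteins to ezrin, had 118 FPKM in CD5 low against 112 FPKM in CD5 high (q = 0.932), by the authors' deposited table. Slc7a6os, whose symbol names its place on the strand opposite Slc7a6, had 29.7 and 21.9 FPKM (q = 0.674). It lies 1733 bases beyond Slc7a6 on chromosome 8. The pseudogene Slc2a4rg-ps had 23.7 and 22.9 FPKM (q = 0.974).

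A list of 30 transporters known from T cells was looked up whatever their values. Of these 23 had a tested row, 14 with a higher and 9 with a lower value in CD5 high (49.1% of all tested genes were higher). They ran from -0.98 (Slc19a1) to 0.73 (Slc4a7) on the log2 scale, and none passed. The other 7, among them the CD98 light chain Slc7a5 and the lactate exporter Slc16a3, are not analysed here.

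Some members share exonic bases or sequence with other genes, so their values are uncertain. The Nextera XT kit does not mark strand. In GENCODE M21 (GRCm38), more than 10% of the exonic bases overlapped exons on the opposite strand for 4 members: Slc16a6 (22.5%, with Amz2 and Arsg), Slc30a7 (16.0%), Slc4a2 (13.7%, with Fastk) and Slc35b4 (10.01%). On the same strand, Slc39a7 shared 80.7% of its exonic bases with a transcript model that runs through it (Gm20427). Of stretches of 50 bases, 33.8% in Slc25a5 also occurred in transcripts of other genes, among which Gm5560 shared the most. The same held for 26.3% in Slc22a5, where its paralog Slc22a21 shared the most, and for 21.8% in Slc39a1, shared with Slc39a1-ps. For Slc4a7, Slc26a11 and Slc41a1 the share was at most 0.197%.

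Genes outside the Slc series that work with these carriers were taken from 9 lists of 201 genes, of which 129 were tested. None changed at q under 0.05. At an unadjusted p under 0.05 there were 14, 6 with the higher and 8 with the lower value in CD5 high, or 10.9% against 10.3% of all tested genes. The median log2 fold change of the 129 was 0.02. Among the sodium, potassium and calcium pumps (8 tested, median 0.03), the calcium pump gene Atp2b4 had 16.6 FPKM in CD5 low against 24.3 FPKM in CD5 high (the authors' p = 0.00985, q = 0.287), and the sodium pump subunit Atp1b1 24.2 and 12.6 FPKM (the authors' p = 0.0185, q = 0.360), according to the authors' deposited table. Among 16 ion channel genes (median 0.08), Trpm7, a channel that passes magnesium, had 31.6 and 20.7 FPKM (the authors' p = 0.0034, q = 0.164). Its value was lower in CD5 high while that of the magnesium extruder Slc41a1 was higher (q = 0.411). Neither gene passed, and a relation between them was not tested.

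Chaperones and regulators of transporters held 4 of 11 tested genes with an unadjusted p under 0.05, all with lower values in CD5 high (background 4.7%), and a median of -0.09. Emb, a chaperone of monocarboxylate carriers, had 114 FPKM in CD5 low against 77.8 FPKM in CD5 high (1.46-fold lower in CD5 high, the authors' p = 0.0048, q = 0.188), by the authors' deposited table. Txnip, which promotes internalization of glucose carriers, had 121 and 89.6 FPKM (the authors' p = 0.0265, q = 0.400). The related arrestin Arrdc3 had 8.09 and 4.34 FPKM (the authors' p = 0.0237, q = 0.387), and the kinase Sgk1 115 and 87.5 FPKM (the authors' p = 0.0485, q = 0.483). Arrdc3 was under the lowest tested level in CD5 high, so it was tested through its CD5 low value alone. Arrdc4, of the same arrestin family, had 7.09 and 16.1 FPKM (the authors' p = 0.181, q = 0.682), according to the authors' deposited table. Without genes under a mean of 20 FPKM the list's median was -0.37.

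In the list of amino acid sensing genes (16 tested, median -0.03) Lamtor5 of the lysosomal Ragulator complex had 47.0 FPKM in CD5 low against 80.9 FPKM in CD5 high (the authors' p = 0.0109, q = 0.299), and the sestrin gene Sesn1 35.1 and 24.4 FPKM (the authors' p = 0.0350, q = 0.439), by the authors' deposited table. The transcription factor gene Atf4, which drives several amino acid carriers, had 122 and 106 FPKM (q = 0.772), and Myc 34.7 and 29.5 FPKM (q = 0.803). Among 11 genes of iron, zinc and copper handling (median 0.01), Ncoa4, the receptor for ferritin breakdown, had 28.97 and 19.4 FPKM (the authors' p = 0.0254, q = 0.397). Its value was lower in CD5 high, as was that of the iron importer Slc25a37 (q = 0.257). Neither of these iron genes passed, and a relation between them was not tested. The transferrin receptor gene Tfrc had 11.03 and 12.5 FPKM (q = 0.873). The 20 mitochondrial transport genes outside Slc25 had a median of -0.08 and none with an unadjusted p under 0.05.

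**Figure D4:**
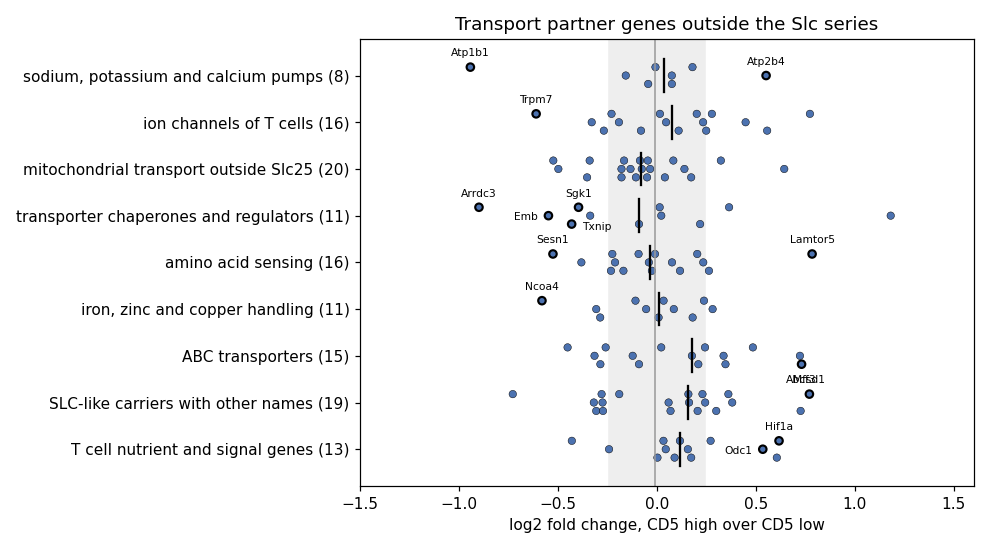
Log2 fold change (CD5 high over CD5 low) of transport partner genes by list, with the number of tested genes in brackets; black bars are list medians, thick outlines and names mark an unadjusted p under 0.05, and the grey band and line are the quartiles and median of all tested genes. The 4 named chaperones and regulators lie left of 0, from Arrdc3 at -0.90, which was under the lowest tested level in CD5 high, to Sgk1 at -0.40.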

How the data were processed

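Per the labels' protocols, amplified cDNA from lysed cells went into Nextera XT libraries. Per the submitters' processing notes, TopHat 1.0.0 and Cufflinks were used with mm10. Per the file headers, the columns follow Cuffdiff. The authors deposited, gene by gene, 1 FPKM value per group, the log2 ratio of these, a score from their test (not used here) and its p-value and q-value; of 7404 rows, 7252 were tested. That log2 ratio was recomputed from the deposited FPKM to within 5.1e-05 and has no pseudocount. The q-values equal a Benjamini-Hochberg adjustment of the deposited p-values over the tested rows to within 0.00012. The planned tests on single libraries could not be run: with combined values and no depth, no model was fitted, and no SD or interval can be given. The labels do not say whether libraries came from separate animals, so the p-values may measure technical spread.

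The words changed, rose and fell are kept for q under 0.05. Members were placed in 9 substrate classes, and 9 lists of partner genes and 11 of cell markers were described by counts and medians. The members and lists were chosen with earlier results of these data known, and 1 gene, Slc2a4rg-ps, was moved to the non-transporters after its row was seen. The genes named were every member with an unadjusted p under 0.05, the 10 with the highest mean, in each class the 2 most abundant and the highest and lowest folds, and 30 T cell transporters; further genes were chosen after their values were seen. Alternatives were a mean of at least 20 FPKM, renewed adjustment over single-gene rows, quantile normalization, log2(FPKM + 1), other thresholds and leaving out the lowest 20% of a class. The promoter limit of 500 bases, the motifs and the checks for shared bases were added after seeing the data. Overlaps were computed from GENCODE M21 with Python 3.11.15, numpy 2.4.6 and pandas 2.3.3, and the adjustment and normalization were tested on simulated data. The annotation behind the counting is not given in the labels, and 1 line of the table is not analysed here. Single values of a few tested genes are not reported here.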

Additional observations from a re-analysis of the deposited data

How the results depend on the processing

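The count of 0 changed Slc genes was also 0 when only genes with a mean of at least 20 FPKM were kept, with p-values adjusted again over single-gene rows, and at q under 0.10; it was 10 at an unadjusted p under 0.05 and 3 at an absolute log2 fold change of at least 1 with no test (4.44% of all tested genes with a finite fold). With that minimum of 20 FPKM, median log2 fold changes moved by over 0.1, to 0.10 for cofactors and osmolytes, -0.12 for ion carriers, -0.077 for the non-transporters, -0.37 for chaperones and regulators and -0.23 for SLC-like carriers with other names; fewer genes then enter each median. No monocarboxylate carrier reached that mean, so this setting gave no median for them. Quantile normalization, log2(FPKM + 1) and leaving out the lowest 20% of a class moved none of the medians they were run on by over 0.1. Quantile normalization changed the sign of 4 members, Slc25a3, Slc30a6, Slc36a1 and Slc38a1, none of which differed by more than 0.05 as deposited. It also moved 2 members across 2-fold. On the log2 scale Slc25a24 went from 1.01 to 0.98, so below 2-fold, and Slc19a1 from -0.98 to -1.04, so past it. No paired analysis was possible because each group has a single combined value in the table, so neither a replicate block nor leaving out a library could be run. Depth is unknown, so how far counting error limits the low members cannot be stated.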

Other observations

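Carriers related to the Slc families but named otherwise, and ATP-driven ABC transporters, held no gene that passed q under 0.05. Of 19 SLC-like carriers, 12 had the higher value in CD5 high, as did 49.1% of all tested genes. Their median log2 fold change was 0.16, and it turned to -0.23 when only genes with a mean of at least 20 FPKM were kept. In this list 1 gene (5.26%) had an unadjusted p under 0.05, against 10.3% of all tested genes. It was Mfsd1, a lysosomal carrier, with 10.4 FPKM in CD5 low against 17.7 FPKM in CD5 high (the authors' p = 0.0178, q = 0.360), according to the authors' deposited table. The most abundant were Sidt1, with 55.7 and 48.8 FPKM (q = 0.788), and Sidt2, with 54.6 and 45.2 FPKM (q = 0.676). Of 15 genes of the ABC family, 9 had the higher value in CD5 high (median 0.18), against the same 49.1%. Tap2 and Tap1, the peptide transporter of antigen presentation, led with 88.0 and 89.4 FPKM (q = 0.982) and 77.8 and 87.9 FPKM (q = 0.812). Abcf3, a family member with no membrane span, had 11.2 and 18.6 FPKM (the authors' p = 0.0147, q = 0.341), by the authors' deposited table.

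Of 13 enzymes and regulators that use the carried nutrients, 11 had the higher value in CD5 high (median 0.12), against 49.1% of all tested genes. None changed at q under 0.05. Hif1a, the oxygen-regulated factor that drives glucose carriers and glycolysis, had 38.9 FPKM in CD5 low against 59.7 FPKM in CD5 high (the authors' p = 0.00255, q = 0.147), according to the authors' deposited table. Odc1, the first enzyme of polyamine synthesis, had 38.6 and 55.9 FPKM (the authors' p = 0.01905, q = 0.363). Glutamine synthetase, Glul, had 29.5 and 21.9 FPKM (q = 0.580).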
